A study of Mus musculus with 12 samples.

Results

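Dendritic cell nuclei were picked out of single-nucleus RNA sequencing of mouse lung by their own transcripts. A nucleus counted when it held at least 2 unique molecular identifiers (UMIs, each standing for 1 captured RNA molecule) spread over at least 2 of Flt3, Clec9a, Xcr1, Cd209a, Ccr7, Ccl22 and Ciita, and more UMIs of these 7 genes than of 11 genes that mark other lung cells (F13a1, Ms4a7, Htr2c, Cpne5, Pax5, Bank1, Ms4a1, Skap1, Itga8, Rtkn2 and Kit). The rule found 200 nuclei among the 47319 that passed the filters on genes and mitochondrial UMIs, or 0.423%. Together they held 599197 UMIs, with a median of 2282 per nucleus.

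The lungs came from 12 C57BL/6J mice in 4 groups of 3, with 1 library per mouse. Mice received bleomycin, a drug whose lung toxicity is used to model fibrosis, or PBS, instilled into the trachea, and afterwards either NVP-BHG712, an inhibitor of the receptor tyrosine kinase EphB4, or its vehicle of N-methyl-2-pyrrolidone and polyethylene glycol by mouth. The groups are named PBS_vehicle, PBS_NVP, Bleo_vehicle and Bleo_NVP. Bleomycin was given at 7 weeks of age, the inhibitor was started 5 days later, and the lungs were taken 2 weeks after bleomycin. All nuclei were sorted on a DNA stain from frozen, perfused whole lung, so no gate selected immune cells.

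Dendritic cells take up antigen, carry it to lymph nodes and show it to T cells on MHC molecules. In the lung, type 1 conventional dendritic cells, which express Clec9a and Xcr1 and depend on the factors IRF8 and BATF3, present captured antigen on MHC class I to CD8 T cells, while type 2 cells present mainly on MHC class II to CD4 T cells. On activation both kinds switch on the chemokine receptor CCR7, which guides them to the lymph node, along with costimulatory ligands and chemokines such as CCL22. Ciita encodes the class II transactivator, which switches on the MHC class II genes through a promoter element that includes an inverted CCAAT box, called the Y box.

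Since Ciita carried a UMI in more of the nuclei than any other gene of the rule, the promoters of 3 MHC class II genes it controls are shown first. Each is the 120 bases before the RefSeq transcription start in GRCm38.p6, read 5′ to 3′ on the strand of the gene, with every GATTGG or its complement CCAATC in capitals. H2-Aa (chr17:34287824-34287943, minus strand) encodes the alpha chain of I-A, H2-Eb1 (chr17:34305747-34305866, plus strand) the beta chain of I-E, and H2-DMb1 (chr17:34153071-34153190, plus strand) a chain of the DM molecule that loads peptides.
H2-Aa: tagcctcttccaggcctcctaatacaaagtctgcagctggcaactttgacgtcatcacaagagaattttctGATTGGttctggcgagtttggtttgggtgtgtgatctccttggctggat
H2-Eb1: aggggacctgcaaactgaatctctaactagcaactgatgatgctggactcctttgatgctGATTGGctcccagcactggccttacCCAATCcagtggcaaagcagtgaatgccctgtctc
H2-DMb1: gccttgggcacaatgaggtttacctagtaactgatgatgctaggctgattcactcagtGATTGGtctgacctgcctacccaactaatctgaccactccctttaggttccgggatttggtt
The first match starts at position -49 in H2-Aa, -60 in H2-Eb1 and -62 in H2-DMb1. Searched on both strands over 250 bases before the start, the 6 letters were found in 8 of 8 class II H2- genes matched to a RefSeq start. Of the 9 such genes listed, H2-Ab1 was not matched and so not searched. The letters were in 14.6% of all 32851 promoter windows of the same length and in 16.6% of genes. A match is a description of the letters and not a measured binding site.

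The deposited libraries were unequal. They held 1183 to 13583 barcodes and 3556084 to 61947690 UMIs, and their median depth ran from 925 UMIs per barcode in Bleo_vehicle replicate 1 to 5408 in PBS_vehicle replicate 1. Bleo_vehicle replicate 3, the largest library, gave 95 of the 200 dendritic cell nuclei and 47.9% of their UMIs, so several levels below are also given over the 105 nuclei of the other libraries. The labels carry a run number, without saying what kind of run it counts, of 1, 2 and 2 for PBS_vehicle, 1, 2 and 3 for PBS_NVP and 4 for all of Bleo_NVP, and they give Bleo_vehicle a batch number (6, 6 and 7) and no run number. Run or batch can therefore be told apart neither from bleomycin treatment nor from the inhibitor in Bleo_NVP against Bleo_vehicle. Of all barcodes, 324 occurred in more than 1 library, as did the barcodes of 2 dendritic cell nuclei, neither of which was chosen in both libraries. A doublet caller marked 2708 nuclei, 13 of them dendritic cell nuclei.

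Ciita was present in 78.0% of the dendritic cell nuclei, Flt3, the receptor for the dendritic cell growth factor FLT3 ligand, in 59.0%, and Clec9a, a receptor for dead cells, in 55.0%. Cd209a, a lectin of type 2 cells, was present in 18%, Xcr1 in 11.5%, and Ccr7 and Ccl22 in 9.5% each. These shares follow from the choice. In fibroblast nuclei, which should lack these genes and served as a view of free RNA, the same genes were seen in 2.10% (Ciita), 0.473% (Flt3) and 0.608% (Clec9a) of nuclei, at a median depth of 4282 UMIs against 2282. Just inside the threshold stood 45 nuclei with 2 UMIs of the 7 genes, and 36 of all members had 1 UMI of Ciita and 1 of another gene. Just outside stood 2145 nuclei with 1 UMI, 498 with more UMIs of a single gene and 120 in which the 11 excluding genes had as many UMIs or more.

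Markers that the rule did not use were seen in most of the nuclei. Over 33 dendritic cell genes outside the rule (shared, type 1, type 2 and mature markers), 196 of 200 nuclei had a UMI, 186 had UMIs of at least 2 of the genes and 175 of at least 3, with a median of 16 UMIs per nucleus. Left out of the count were 5 genes of the same lists (Cadm1, Socs2, Ankrd33b, Serpinb6b and Sirpa), and with them, over 38 genes, 194 nuclei had at least 2 and 186 at least 3. A gene of the MHC class II list, which also holds the lysosomal proteases Ctss and Lgmn, was seen in 180. Ciita, which switches on MHC class II genes, is a gene of the rule and was seen in 156 nuclei. The count of 180 is therefore not independent of the choice of nuclei. The 14 nuclei with fewer than 2 of the 33 genes were shallower, at a median of 1418 UMIs against 2515 in the rest. In 42 nuclei the summed UMIs of a list for another cell type exceeded those of the dendritic cell list, most often endothelium (21 nuclei), alveolar type II cells (18) or airway epithelium (16), and never T and NK lymphocytes, neutrophils, mast cells or mural cells. Over all 38 genes the 42 nuclei became 37.

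Several defining genes of lymphocytes, neutrophils and mast cells had no UMI, whereas other genes of the same lists and macrophage genes were partly present. No UMI was found in the 200 nuclei for Cd3e, Cd3d, Cd3g and Cd247 of the T cell receptor complex, for the NK genes Ncr1 and Klrb1c, for the B cell receptor subunit Cd79b, for the neutrophil genes S100a8, S100a9 and Retnlg, or for the mast cell protease Cpa3. Levels are given as CPM, the UMIs of a gene per 1000000 UMIs summed over the nuclei named. Over the whole lists, the summed level was 133 CPM for B lymphocytes, against 4441 in B lymphocyte nuclei, and 53.4 for T and NK lymphocytes. Of the 10 alveolar macrophage genes 8 had a UMI, in 69 of the 200 nuclei, with a sum of 464 CPM against 1213 in macrophage or monocyte nuclei and 617 in all other nuclei, although the receptor gene Marco had none. In 9 nuclei this list exceeded the dendritic cell genes. The list of interstitial macrophages and monocytes reached 579 CPM, against 823 in macrophage or monocyte nuclei and 194 in all other nuclei. Ccr2, a chemokine receptor that dendritic cells also carry, gave 200 of the UMIs of that list. The plasmacytoid dendritic cell receptor Siglech was seen in 13 nuclei, 12 of which were grouped by Clec9a or Xcr1, and 4 of the 13 held Pacsin1, another plasmacytoid gene.

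Shared markers of conventional dendritic cells stood well above the rest of the lung. Zbtb46, the transcription factor that sets conventional dendritic cells apart from macrophages, was found in 134 of the 200 nuclei at 656 CPM, 7.5 times its level in all other nuclei. By library it was at 772, 385 and 250 in PBS_vehicle, 757, 765 and 642 for PBS_NVP, 0, 138 and 659 in Bleo_vehicle and 0, 649 and 1139 for Bleo_NVP. Zbtb46 was thus seen in 10 of 12 libraries, and the 2 libraries without it held 2 and 1 dendritic cell nuclei. PBS_vehicle replicate 3, counted among the 10, held 1 such nucleus. That nucleus had 0.749 UMIs of dendritic cell markers outside the rule per 1000, against 9.23 of endothelial, AT2, AT1 and airway markers. Kmo, an enzyme of tryptophan breakdown, was 77.4 times higher than in other nuclei (134 times without Bleo_vehicle replicate 3), Plbd1, a lysosomal phospholipase-like protein, 82.5 times (115 times), and Bcl11a, a factor for lymphoid and dendritic development, 20.3 times, although Bcl11a was higher still in B lymphocyte nuclei (664 against 262 CPM). All such ratios compare chosen nuclei with the rest and carry no test.

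Genes of type 1 cells led the whole set. Wdfy4, which type 1 cells need to present captured antigen on class I, was found in 153 nuclei at 3158 CPM against 71.8 in other nuclei. Itgae, the integrin chain CD103, reached 397 against 2.14, and Clnk, an adaptor of immune receptor signalling, was 98.0 times higher. Irf8 was 27.0 times higher, Batf3 36.1 times and Tlr3, the sensor of double-stranded RNA, 16.8 times, while Cadm1, which many lung cells also express, differed by 1.47 times. Without Bleo_vehicle replicate 3 the ratio for Wdfy4 was 53.0 in place of 44.0, that for Irf8 30.3 and that for Itgae 288 in place of 185. Across libraries Wdfy4 was at 6006, 1469 and 0 CPM in PBS_vehicle, 4053, 1989 and 8344 for PBS_NVP, 380, 964 and 2654 in Bleo_vehicle and 1131, 3540 and 1898 for Bleo_NVP, so the 4 groups overlapped. Wdfy4 lies on chromosome 14 (32959547 to 33185508, minus strand) and Itgae on chromosome 11 (73090583 to 73147446, plus strand) in GRCm38.

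The nuclei fell into states by which of the 5 subset genes of the rule had most UMIs. Clec9a and Xcr1 led in 110 nuclei (55.0%), Cd209a in 34 (17.0%) and Ccr7 and Ccl22 in 27 (13.5%), 27 others held only Flt3 and Ciita, and 2 were tied. Outside Bleo_vehicle replicate 3 the same counts were 54, 22, 9 and 19 of 105, with 1 tied. The median depth was 2773, 2206, 1883 and 1380 UMIs in the order given, so the nuclei with only Flt3 and Ciita were the shallowest.

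**Figure D1:**
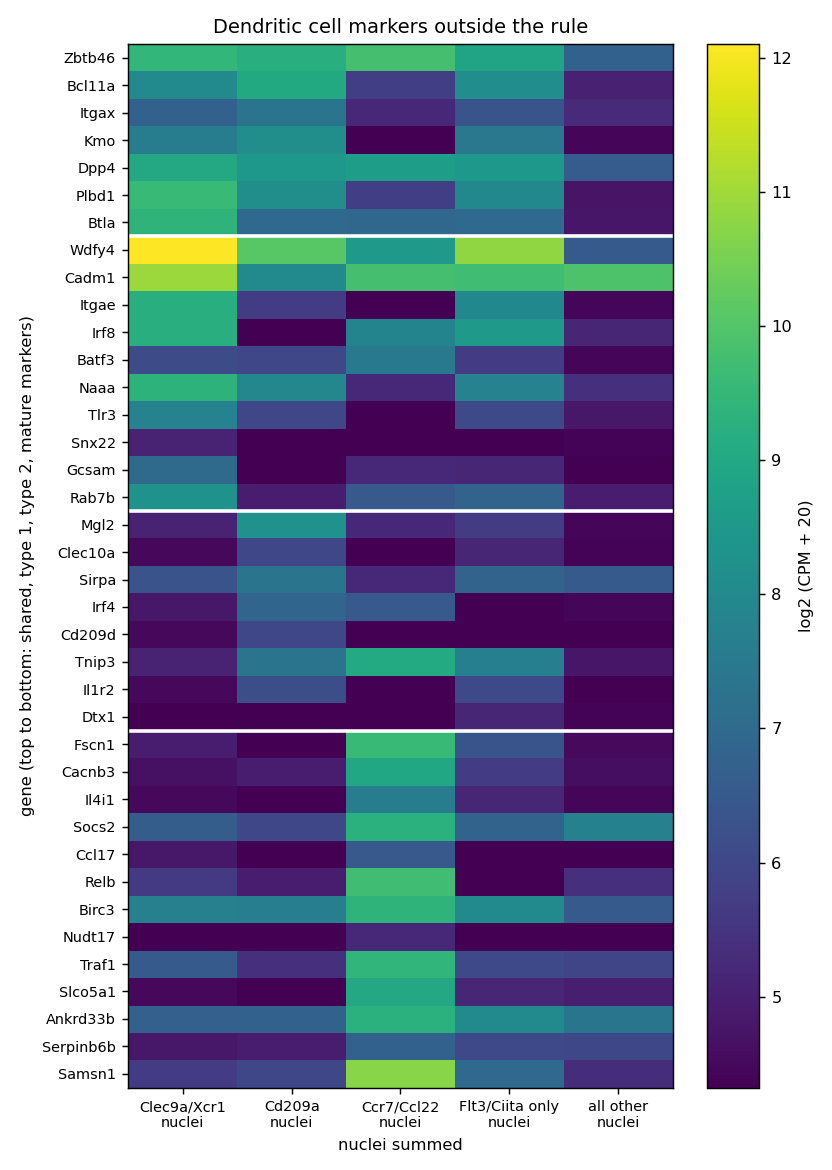
Levels of dendritic cell markers that the rule did not use, as log2 of CPM plus 20, in the nuclei of 4 states set by the rule genes and in all other lung nuclei, with white lines between the shared, type 1, type 2 and mature lists. Type 1 genes such as Wdfy4 are brightest in the Clec9a/Xcr1 column (4384 CPM) and mature genes such as Fscn1 in the Ccr7/Ccl22 column (746).

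Type 1 markers outside the rule were highest in the Clec9a/Xcr1 state. Over the 10 type 1 markers outside the rule the summed level was 8766 CPM in Clec9a/Xcr1 nuclei, 1662 in Cd209a nuclei and 1701 in Ccr7/Ccl22 nuclei. Irf8 was seen in 68 Clec9a/Xcr1 nuclei, 0 of 34 Cd209a nuclei and 7 Ccr7/Ccl22 nuclei, and Itgae in 62, 3 and 0. Clnk was at 539 CPM in Clec9a/Xcr1 nuclei and was listed at 0 in Cd209a nuclei.

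Cd209a nuclei were marked by a different set. Il1rl1, the receptor for the alarmin IL-33, was at 525 CPM there against 2.69 in Clec9a/Xcr1 nuclei and 17.4 in Ccr7/Ccl22 nuclei, and 18 of the 26 nuclei with Il1rl1 belonged to this state. Mgl2, a lectin also called CD301b, was at 289 against 13.5 and 17.4. Irf4, a factor that type 2 cells depend on, was at 96.5, against 8.08 in Clec9a/Xcr1 nuclei and 69.4 in Ccr7/Ccl22 nuclei. The factor Zeb2 was at 2626 against 668 and 469, and Cd200r1, an inhibitory receptor, at 675 against 75.4 and 17.4. Over the 8 type 2 markers the sum was 804 in Cd209a nuclei, 625 in Ccr7/Ccl22 nuclei and 102 in Clec9a/Xcr1 nuclei. Without Bleo_vehicle replicate 3 the order changed, at 725 in 22 Cd209a nuclei and 1442 in 9 Ccr7/Ccl22 nuclei. The alveolar macrophage list summed to 750 CPM in Cd209a nuclei, the highest of the 4 states. The list of interstitial macrophages and monocytes, which includes Ccr2, summed to 943 CPM there, above the type 2 sum. In macrophage or monocyte nuclei that list was at 823. Adgre4, a gene of that list, was at 236 CPM in Cd209a nuclei against 9.88 in the other dendritic cell nuclei. The part of both lists in these levels was not tested. Il1rl1 by library was at 226, 175 and 0 CPM in PBS_vehicle, 121, 459 and 321 for PBS_NVP, 0, 103 and 52.3 in Bleo_vehicle and 0, 236 and 0 for Bleo_NVP. It was seen in every group, and the groups overlapped.

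Ccr7/Ccl22 nuclei had the genes of mature, migratory cells. Fscn1, the actin-bundling protein of dendrites, was at 746 CPM in them against 10.8 in Clec9a/Xcr1 nuclei and was listed at 0 in Cd209a nuclei. Samsn1, an adaptor protein, was at 1683 against 32.3 and 42.9, and the summed level of the 13 mature markers was 7115 against 523 and 407. Genes of the NF-κB pathway were higher too, with Relb at 816 against 29.6 and 10.7, Rel at 1406 against 145 and 225, and Nfkb1 at 1458 against 469 and 579. Cd83, a surface protein of mature dendritic cells, was found in 20 of the 27 nuclei at 1336 CPM, and the inhibitory ligands Cd274 (PD-L1) and Pdcd1lg2 (PD-L2) reached 434 and 243. Pdcd1lg2 had no UMI in Clec9a/Xcr1 or Cd209a nuclei. Of the 27 nuclei 18 came from Bleo_vehicle replicate 3. In the 9 from other libraries Fscn1 was at 641 CPM, Relb at 641 and Cd83 at 1282, each still above the other named states, but the mature sum was 3740 in place of 7115, Samsn1 was at 214 and Cd274 and Pdcd1lg2 had no UMI.

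Il12b, which encodes the subunit shared by interleukins 12 and 23, was almost entirely a matter of 1 library. Of its 45 UMIs in 11 dendritic cell nuclei, 44 UMIs in 10 nuclei came from Bleo_vehicle replicate 3 (154 CPM) and 1 from PBS_NVP replicate 2 (51.0), and the other 10 libraries had none. Of the 11 nuclei, 10 belonged to the Ccr7/Ccl22 state. Over the libraries other than Bleo_vehicle replicate 3 its level was 3.20 CPM. Ccl5, a T cell attractant, had 8 UMIs, all in Bleo_vehicle replicate 3. Cd274 behaved alike, at 6.70 CPM in PBS_NVP replicate 1, 103 and 136 in Bleo_vehicle replicates 2 and 3 and 0 in the other 9 libraries, and the ratio of its level to that of other nuclei went from 1.74 to 0.299 without Bleo_vehicle replicate 3. Il12a, Il10, Cxcl9 and Cxcl10 had no UMI in any of the 200 nuclei.

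MHC class II genes stood high in the dendritic cell nuclei. Ciita, which switches them on, is a gene of the rule, so these levels are not independent of the choice of nuclei. Of the 16 genes on the list, 15 had a UMI in dendritic cell nuclei, and 14 of these stood higher than in all other nuclei, 10 of them by over 10 times. H2-Aa was found in 54.5% of the nuclei at 446 CPM, against 20 in all other nuclei, 65.1 in macrophage or monocyte nuclei, 120 in B lymphocyte nuclei and 10.9 in fibroblast nuclei, of which 4.85% had a UMI. H2-Eb1 was 28.6 times and H2-Ab1 18.7 times higher than in other nuclei. Cd74, the invariant chain that escorts class II molecules, was at 611 against 43.5 CPM, and H2-DMb1 was 19.6 times higher. The ratio for H2-Aa was 30.7 without Bleo_vehicle replicate 3, in place of 22.3. Lgmn and Ctss, lysosomal proteases that cut the invariant chain and antigens, were at 0.840 and 3.38 times the level of other nuclei, and Ctss was lower than in macrophage or monocyte nuclei (262 against 365 CPM).

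H2-Aa, whose promoter is shown above, was at 490, 210 and 0 CPM in PBS_vehicle, 529, 204 and 321 for PBS_NVP, 0, 0 and 502 in Bleo_vehicle and 0, 354 and 190 for Bleo_NVP. H2-Eb1 was at 584, 245 and 0, then 395, 867 and 0, then 0, 172 and 415, then 0, 472 and 190 in the same order. Both genes were present in every group and their levels overlapped between groups, and 3 of the 4 libraries without H2-Aa held only 1 or 2 dendritic cell nuclei. Among the states, H2-Aa was at 447, 504 and 330 CPM in Clec9a/Xcr1, Cd209a and Ccr7/Ccl22 nuclei, H2-Eb1 at 377, 590 and 434 and Cd74 at 606, 815 and 312. In GRCm38 H2-Aa spans chromosome 17 from 34282744 to 34287823 and H2-Eb1 from 34305867 to 34316674.

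**Figure D2:**
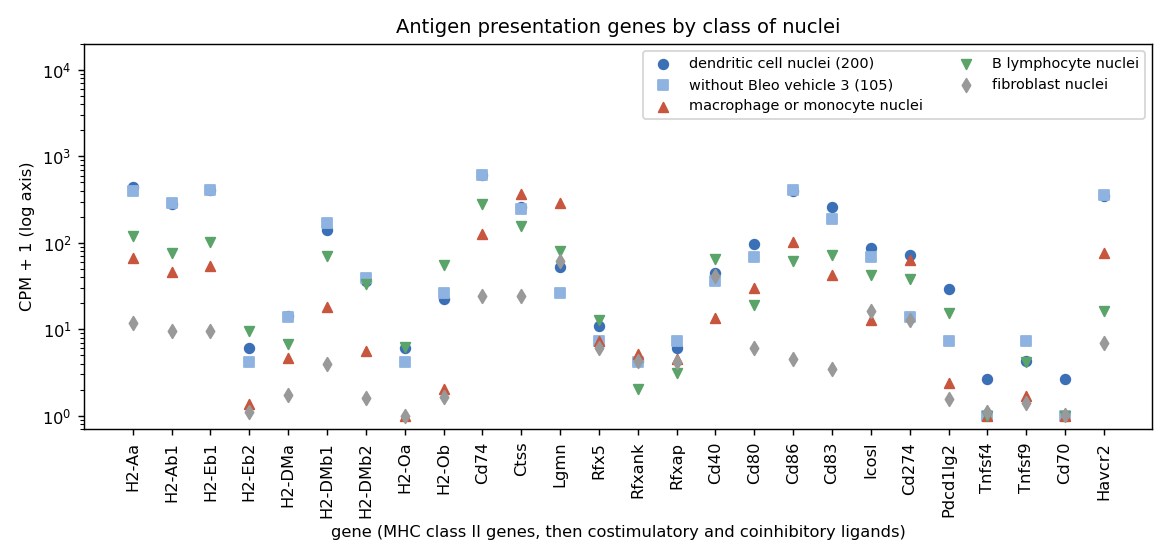
Level of each MHC class II gene and each gene of the costimulatory and coinhibitory list in CPM plus 1 on a log axis, in the 200 dendritic cell nuclei, in the 105 outside Bleo_vehicle replicate 3, and in macrophage or monocyte, B lymphocyte and fibroblast nuclei. H2-Aa stands at 446 in dendritic cell nuclei and at 10.9 in fibroblast nuclei.

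Class I genes, which nearly all cells express, stood closer to the rest of the lung. All 12 genes on the class I list were higher in dendritic cell nuclei, 9 of them by over 2 times, with H2-K1 at 1.98 times, B2m at 2.03 times and the peptide transporter Tap1 at 4.48 times. Nlrc5, the class I counterpart of Ciita, was 7.92 times higher and was at 694 CPM in Ccr7/Ccl22 nuclei against 172 in Clec9a/Xcr1 and 75 in Cd209a nuclei.

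All 11 genes on the costimulatory and coinhibitory list, mostly ligands, were higher than in other nuclei, 7 of them by over 10 times. This did not hold outside Bleo_vehicle replicate 3, where Tnfsf4 and Cd70 had no UMI in any state and Cd274 fell below other nuclei, as given above. Cd86, the ligand of CD28 and CTLA-4, was found in 89 nuclei at 399 CPM, 43.8 times the level of other nuclei, and was at 444, 257 and 573 in Clec9a/Xcr1, Cd209a and Ccr7/Ccl22 nuclei. Cd80 was 11.1 times and Cd83 34.6 times higher. Havcr2, the inhibitory receptor TIM-3, was at 479 CPM in Clec9a/Xcr1 nuclei, 150 in Cd209a nuclei and 52.1 in Ccr7/Ccl22 nuclei. Cd86 was thus highest in the Ccr7/Ccl22 state and Havcr2 lowest there. Cd86 by library was at 659, 105 and 0 CPM in PBS_vehicle, 536, 51.0 and 321 for PBS_NVP, 380, 103 and 384 in Bleo_vehicle and 0, 177 and 380 for Bleo_NVP, which overlap.

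Among sensors, Tlr11, which in mice recognises profilin of parasites, had 29 UMIs in 24 nuclei, or 48.4 CPM against 0.0786 in other nuclei. Aim2, a sensor of cytosolic DNA, was found in 77 nuclei at 9.82 times the level of other nuclei, whereas Tlr9 and Clec4e had no UMI. Of chemokine receptors, Ccr2, which draws cells from blood into inflamed tissue, was at 334 CPM against 7.12, and was listed at 0 in Ccr7/Ccl22 nuclei while it was at 361 and 504 in Clec9a/Xcr1 and Cd209a nuclei. The macrophage growth factor receptor gene Csf1r was lower than in other nuclei (0.342 times). Of 12 proliferation genes 11 had a UMI and stood higher than in other nuclei, 10 of them by over 2 times. Their sum was 237 CPM against 92.9, and by library it ran from 0 to 1062. Mki67 was seen in 3 nuclei, all Clec9a/Xcr1, and Top2a in 8. The interferon-induced Mx1 was 24.9 times higher than in other nuclei.

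Ephb4, the target of NVP-BHG712, was sparse in dendritic cell nuclei. It had 16 UMIs in 12 of the 200, or 26.7 CPM against 35.5 in all other nuclei, of which 9.84% had a UMI. By library it was at 26.8 in PBS_NVP replicate 1, 103 and 31.4 in Bleo_vehicle replicates 2 and 3 and 0 in the other 9. Of the 8 EphB receptors and ephrin-B ligands, 1 stood higher than in other nuclei, Efnb1 was at 0.396 times their level, Ephb2 had 1 UMI and Ephb6 none. No member of the family had enough UMIs to be tested between groups.

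Clustering the 200 nuclei without the genes of the rule gave 5 clusters, described here by their leading genes with no test. One of 83 nuclei was led by Itgae, Clnk, Timd4 and Rab7b, held 71 Clec9a/Xcr1 nuclei and was type 1 conventional dendritic cell-like by the fixed markers. One of 26 nuclei was led by Mreg, Stat4, Il12b and Fscn1, held 22 Ccr7/Ccl22 nuclei, 18 of the 26 from Bleo_vehicle replicate 3, and was mature migratory dendritic cell-like. One of 47 nuclei was led by Gda, Blnk, Cd200r1 and Il1rl1 and held 24 Cd209a nuclei, but rested on too few fixed markers to be named. The macrophage receptor gene Mrc1 was among its leading genes, and its alveolar macrophage sum of 1312 CPM was above its type 2 sum of 764 and above the 1213 of macrophage or monocyte nuclei. The remaining clusters, of 27 and 17 nuclei, were led by endothelial genes (Pde3a, Ldb2, Tek) and by Arhgef38, Mecom and Bmpr1b, the last with a summed AT2 marker level of 4828 CPM.

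These last 2 clusters, called mixed below, held 44 nuclei (22.0%) at a median of 4257 UMIs, against 1913 in the other 156, and all 13 called doublets. Their summed endothelial markers were at 4287 CPM against 357 in the other nuclei, and AT2 markers at 3048 against 1334. MHC class II genes were still seen in 38 of the 44, at a summed 1457 against 2768 CPM. They made up 3 of the 12 nuclei in PBS_vehicle replicate 2, 7 of 15 in Bleo_vehicle replicate 2 and 21 of 95 in Bleo_vehicle replicate 3. In PBS_NVP they were 7 of 33 in replicate 1 and 1 of 15 in replicate 2. In Bleo_NVP they were 2 of 10 in replicate 2 and 2 of 5 in replicate 3. The only nucleus of PBS_vehicle replicate 3 was also among them, and every level given for that library rests on it. The remaining libraries had none. Shares, states and gene tests over all 12 libraries are therefore also given without the mixed clusters. The fit on libraries with at least 10 nuclei and the test against other nuclei are not.

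**Figure D3:**
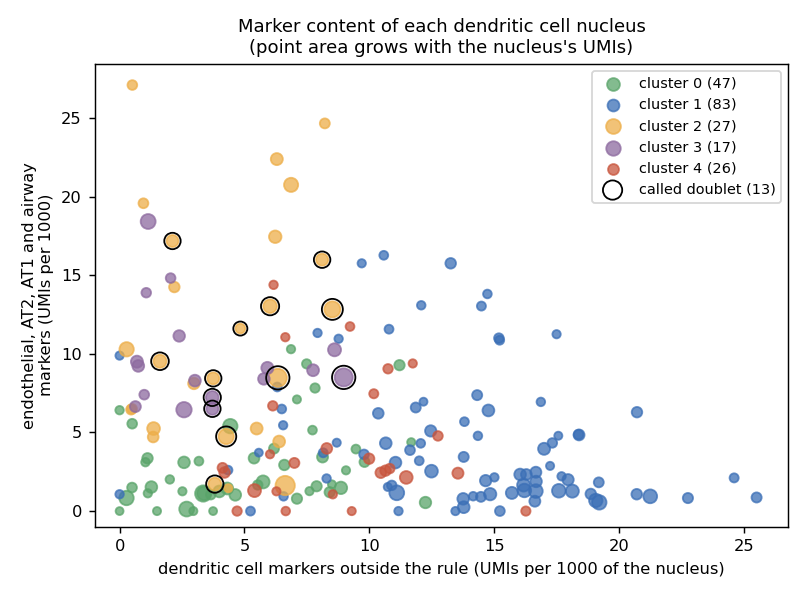
Each of the 200 dendritic cell nuclei by the UMIs of dendritic cell markers outside the rule (horizontal) and of endothelial, AT2, AT1 and airway markers (vertical), both per 1000 UMIs of the nucleus, with colours for the 5 clusters, point area growing with depth and black rings for the 13 called doublets. The 44 nuclei of clusters 2 and 3 hold all the ringed points.

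The first comparison asked whether dendritic cells took up a different share of the lung nuclei after bleomycin or with the inhibitor. In PBS_vehicle they made up 0.239% of nuclei (9 of 3771, exact 95% interval 0.109 to 0.453), 0.485% (12 of 2477, 0.251 to 0.845) and 0.0683% (1 of 1465). In PBS_NVP the shares were 0.383%, 0.712% and 0.114%, in Bleo_vehicle 0.0880%, 0.225% and 0.716%, and in Bleo_NVP 0.0848%, 0.471% and 0.310%. Within each group the 3 libraries lay further apart than the group means, which were 0.264 ± 0.209% (SD, n = 3), 0.403 ± 0.300%, 0.343 ± 0.330% and 0.289 ± 0.194% in the same order.

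No difference in the share was larger than this spread. Bleo_vehicle against PBS_vehicle gave p = 0.7, Bleo_NVP against Bleo_vehicle p = 0.8, PBS_NVP against PBS_vehicle p = 0.6 and Bleo_NVP against PBS_NVP p = 0.6 in two-sided exact permutation tests over libraries, where 3 against 3 cannot give a p below 0.1. The 6 bleomycin libraries (0.316 ± 0.244%) against the 6 PBS libraries (0.334 ± 0.243%) gave p = 0.892 by the same exact permutation test, and after adjustment over the 5 comparisons every p was 0.892. In run 1, PBS_NVP stood at 0.383% against 0.239% in PBS_vehicle, and in run 2 at 0.712% against 0.485% and 0.0683%. Both runs thus had the inhibitor library on top, a comparison of 2 libraries against 3 in all, and Bleo_vehicle shares no run number with another group.

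**Figure D4:**
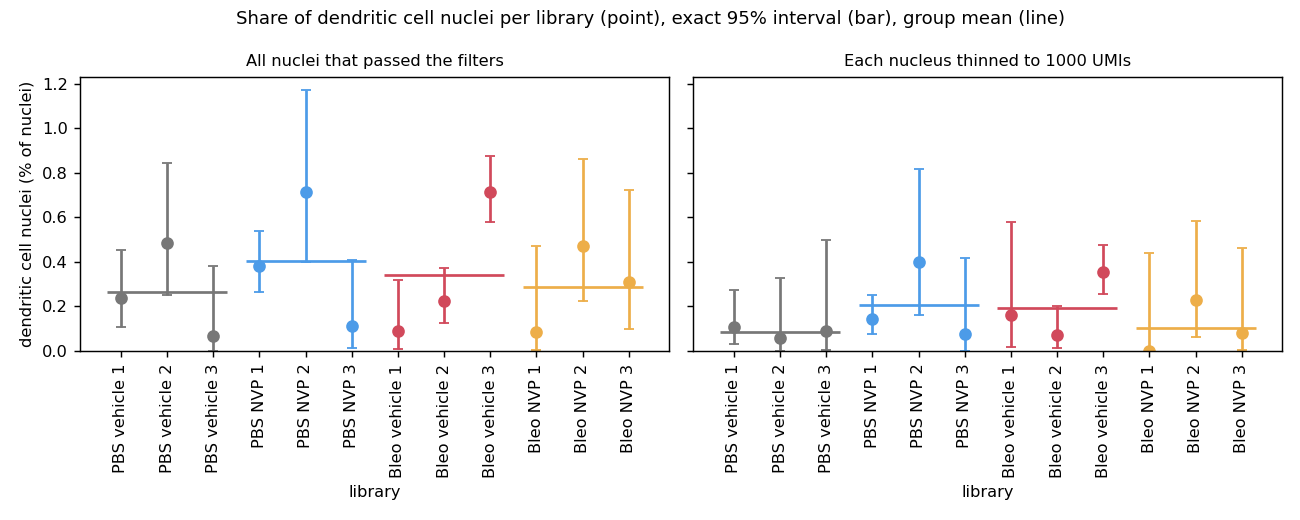
Dendritic cell nuclei as a percent of the nuclei that passed the filters, 1 point per library with its exact 95% interval and the mean of each group as a line, for all nuclei (left) and with each nucleus thinned to 1000 UMIs (right). The 4 groups overlap, and in Bleo_vehicle the points on the left run from 0.0880% to 0.716%.

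Depth changes how many nuclei can meet a rule of 2 UMIs. With every nucleus thinned to 1000 UMIs and shallower nuclei left out, the group means were 0.0853% in PBS_vehicle, 0.206% for PBS_NVP, 0.195% in Bleo_vehicle and 0.104% for Bleo_NVP. The 5 exact permutation p-values, two-sided and in the order given above, were then 0.3, 0.5, 0.3, 0.6 and 0.957. Without the 44 nuclei of the mixed clusters they were 0.8, 0.8, 0.5, 0.6 and 0.714 in that order.

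The makeup of the dendritic cell nuclei was compared next. Ccr7/Ccl22 nuclei were 0 of 22 in PBS_vehicle, which allows a share of up to 13.6%, 5 of 50 (10.0%, exact interval 3.33 to 21.8) for PBS_NVP, 21 of 112 (18.8%, 12.0 to 27.2) in Bleo_vehicle and 1 of 16 (6.25%, 0.158 to 30.2) for Bleo_NVP. By library they numbered 2, 3 and 0 for PBS_NVP, 0, 3 and 18 in Bleo_vehicle, and 0, 1 and 0 for Bleo_NVP, so 18 of the 27 came from 1 library. Clec9a/Xcr1 nuclei were 16 of 22 (72.7%, 49.8 to 89.3) in PBS_vehicle, 22 of 50 (44.0%, 30 to 58.8) for PBS_NVP, 62 of 112 (55.4%, 45.7 to 64.8) in Bleo_vehicle and 10 of 16 (62.5%, 35.4 to 84.8) for Bleo_NVP. The intervals cover counting error within pooled nuclei and not the spread between mice. Without the mixed clusters Ccr7/Ccl22 nuclei were 0 of 18, 5 of 42, 19 of 84 and 1 of 12 in that group order. Clec9a/Xcr1 nuclei were then 12 of 18, 18 of 42, 44 of 84 and 6 of 12.

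Over the libraries with at least 10 dendritic cell nuclei, Ccr7/Ccl22 nuclei were 19.0% and 20% in Bleo_vehicle replicates 3 and 2, 0 in PBS_vehicle replicate 2 and 10.0% in Bleo_NVP replicate 2. The difference of 19.5 percentage points between Bleo_vehicle and PBS_vehicle had p = 0.667 in a two-sided exact permutation test, which is the smallest p that 2 libraries against 1 allow. For the other states the Bleo_vehicle and PBS_vehicle shares were 40% and 58.9% against 58.3% (Clec9a/Xcr1), 6.67% and 12.6% against 25% (Cd209a), and 8.42% and 33.3% against 16.7% (Flt3 and Ciita only). All 8 adjusted p-values of these exact permutation tests were 1, and a test of this size cannot separate the groups.

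**Figure D5:**
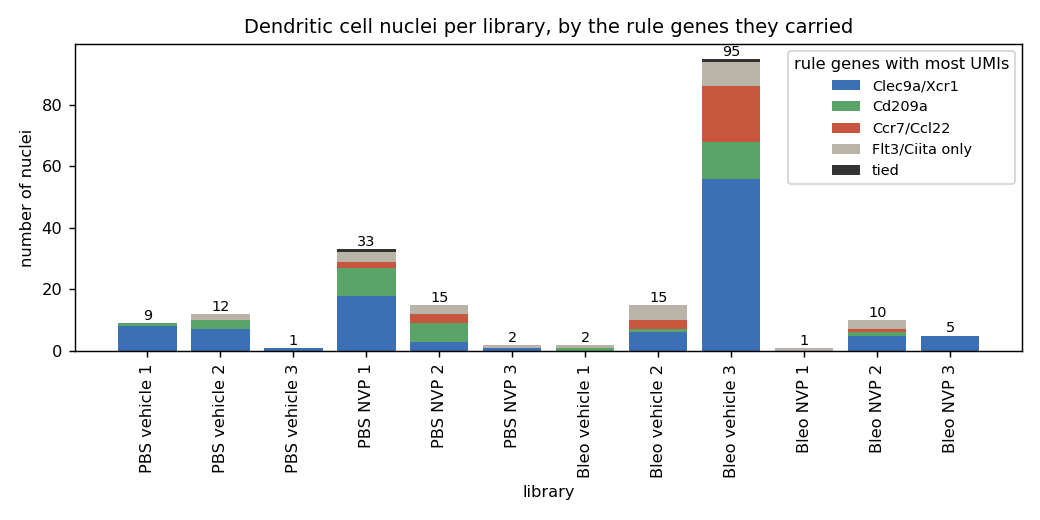
Dendritic cell nuclei of each library divided by state, set by which subset genes of the rule had most UMIs. Ccr7/Ccl22 nuclei are seen in 5 libraries and number 18 in Bleo_vehicle replicate 3.

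Gene levels were then compared between groups on UMIs summed over the dendritic cell nuclei of each library. Only 6 libraries had at least 10 such nuclei (PBS_vehicle replicate 2, PBS_NVP replicates 1 and 2, Bleo_vehicle replicates 2 and 3 and Bleo_NVP replicate 2), which left 1 library in PBS_vehicle and in Bleo_NVP and 2 residual degrees of freedom. The quasi-likelihood test of edgeR was run on 1290 genes, without the 18 genes of the rule, and a call needs an adjusted p under 0.05. The lone libraries are assumed to vary like the other groups. Levels from this fit are given as scaled CPM, which use library sizes adjusted by TMM and so differ slightly from the CPM above. A fit on all 12 libraries, added later, tested 467 genes with 8 residual degrees of freedom.

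Between Bleo_vehicle and PBS_vehicle the edgeR fit called no gene (0.0% of 1290), while 171 had an unadjusted p under 0.05, and DESeq2 called none. Several dendritic cell genes overlapped between the groups. Wdfy4 was at 1426 scaled CPM in PBS_vehicle replicate 2 and at 1187 and 2640 in Bleo_vehicle replicates 2 and 3, a log2 difference of 0.46 (SE 0.65, edgeR adjusted p = 0.829). Zbtb46 was at 373 against 170 and 656 scaled CPM. H2-Eb1 was at 238 against 212 and 413 scaled CPM (log2 difference 0.55, SE 0.78, edgeR adjusted p = 0.832). In none of these 3 genes did the lone PBS_vehicle library fall outside the Bleo_vehicle values.

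Other dendritic cell genes lay apart without passing. Cd74 was at 272 scaled CPM in PBS_vehicle replicate 2 and at 721 and 611 in Bleo_vehicle (log2 difference 1.26, SE 0.77, edgeR adjusted p = 0.536). Havcr2 was at 34.0 against 127 and 344 scaled CPM (2.96, SE 1.20, edgeR adjusted p = 0.324). Plbd1 was at 67.9 against 170 and 371 scaled CPM, with an edgeR adjusted p of 0.412. Fscn1, 1 of the 4 mature markers with enough UMIs, had none in PBS_vehicle replicate 2 and was at 339 and 118 scaled CPM in Bleo_vehicle. The missed threshold does not show that these genes were equal, since a log2 difference near 3 went uncalled. Of the 28597 UMIs in PBS_vehicle replicate 2, nuclei of the mixed clusters held 1956, 7870 and 7093. Their part in these differences was not tested.

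By list, 5 of the 16 MHC class II genes were tested and 0 called, with a median log2 difference of 1.26 against 0.06 over all genes tested. The median was -0.15 over 5 type 1 markers, 0.25 over 6 shared markers, 2.04 over 4 mature markers and 1.35 over 8 transcription factors of dendritic cells, with 0 called in each. Over the 6 AT2 genes tested it was -2.66 and over the 5 endothelial genes -0.76, also with 0 called. In the dendritic cell nuclei of PBS_vehicle replicate 2 the summed AT2 level was 4861 CPM and the endothelial level 4406, against 2548 and 2066 in Bleo_vehicle replicate 2 and 2316 and 2250 in replicate 3. Their part in the differences was not tested.

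Mitochondrially encoded transcripts stood high in bleomycin with vehicle. Summed over the 13 genes, dendritic cell nuclei held 188, 1644 and 4991 CPM in PBS_vehicle and 670, 3213 and 1926 in PBS_NVP. In Bleo_vehicle the sums were 19362, 18351 and 10921, and in Bleo_NVP 3394, 2714 and 0. The 3 Bleo_vehicle libraries thus lay above all 9 others. All 9 genes tested had a log2 difference above 0 between Bleo_vehicle and PBS_vehicle, with a median of 3.44, and none was called in the 6 libraries.

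With all 12 libraries edgeR called 5 genes higher in Bleo_vehicle than in PBS_vehicle, 1.07% of the 467 tested, and none lower. They were mt-Nd4 (log2 difference 4.53, SE 1.03, edgeR adjusted p = 0.0201), mt-Co3, mt-Cytb, AY036118 and Taco1. By library mt-Co3, a subunit of cytochrome c oxidase, was at 18.8, 210 and 499 CPM in PBS_vehicle, 141, 561 and 642 for PBS_NVP, 3797, 3099 and 2068 in Bleo_vehicle, and 0, 413 and 0 for Bleo_NVP. The groups did not overlap between Bleo_vehicle and the other 3. AY036118 and Taco1 were named after their values were seen.

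The same shift was present in the other nuclei of these libraries. Summed mitochondrial transcripts in all nuclei that were not dendritic cells were 480 to 725 CPM in PBS_vehicle and 629 to 793 for PBS_NVP, 14290, 11421 and 6160 in Bleo_vehicle, and 542 to 676 for Bleo_NVP. Mitochondrial RNA lies outside the nucleus, and the 3 libraries are those whose labels carry a batch number and no run number. Leaving out 1 library at a time, the 12-library count between these groups ran from 0 (without Bleo_vehicle replicate 2) to 5. It was 1 without PBS_vehicle replicate 1, PBS_NVP replicate 1, Bleo_NVP replicate 1 or Bleo_NVP replicate 3, 2 without Bleo_vehicle replicate 1 and 3 without PBS_NVP replicate 3. The calls were also lost in nuclei of at least 500 UMIs with at most 1% mitochondrial (0 of 233 genes tested, 12 at an unadjusted edgeR p under 0.05). All dendritic cell nuclei had at least 502 UMIs, so the mitochondrial limit alone removed nuclei, leaving 39 of 95 in Bleo_vehicle replicate 3. That setting thus takes out nuclei rich in the transcripts called and is no separate check of them. With the rule without Ciita 0 of 176 genes were called (16 unadjusted). Without the mixed clusters the count was 7, of which 6 were mitochondrially encoded.

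Between Bleo_NVP and Bleo_vehicle edgeR called no gene in the 6 libraries (0.0%), with 121 at an unadjusted p under 0.05 and none called by DESeq2, and none with all 12 libraries (26 unadjusted). Wdfy4 was at 3185 scaled CPM in Bleo_NVP replicate 2 against 1187 and 2640 (log2 difference 0.70, SE 0.61, edgeR adjusted p = 0.808). Cd74 was at 637 against 721 and 611 scaled CPM, a difference of -0.04 (SE 0.72, edgeR adjusted p = 0.984). Cd74 in the lone Bleo_NVP library lay between the Bleo_vehicle values, and Wdfy4 above both.

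The genes nearest to the threshold were a dendritic cell marker and genes of several other kinds. Plbd1 was at 1168 scaled CPM in Bleo_NVP replicate 2 against 170 and 371 (1.92, SE 0.66, edgeR adjusted p = 0.391). Zeb2 was at 159 against 1314 and 1308 (-3.03, SE 0.81) and Tmcc3, which encodes an endoplasmic reticulum membrane protein, at 106 against 1314 and 1426 (-3.68, SE 0.96), each with the same edgeR adjusted p of 0.391. The surfactant gene Sftpc, at 212 against 2119 and 1502 scaled CPM, and the endothelial receptor gene Calcrl, at 53.1 against 721 and 947 scaled CPM, fell on the same side with that adjusted p. The median over the 5 endothelial genes tested was -3.97, over 5 MHC class II genes -0.04, over 4 mature markers -2.04 and over 9 mitochondrial genes -2.89, against -0.15 over all genes. None of these genes was called.

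Without the mixed clusters, the fit on all 12 libraries called 10 genes lower in Bleo_NVP than in Bleo_vehicle, mitochondrial genes and Tmcc3 among them. Of the 16 Bleo_NVP nuclei 4 were in those clusters, and 12 remained. All Bleo_NVP libraries carry run number 4 and all Bleo_vehicle libraries a batch number, so the inhibitor and the run or batch cannot be told apart here. The same fit called 0 genes without the called doublets, in nuclei of at least 500 UMIs with at most 1% mitochondrial, and with the rule without Ciita. At an unadjusted edgeR p under 0.05 stood 26, 7 and 8 genes in that order.

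Between PBS_NVP and PBS_vehicle edgeR called 3 genes, all lower with the inhibitor, 0.233% of the 1290. Ptprb, an endothelial phosphatase gene, was at 1833 scaled CPM in PBS_vehicle replicate 2 and at 105 and 48.4 in PBS_NVP (log2 difference -4.28, SE 0.60, edgeR adjusted p = 0.0089). Samd12 was at 1494 against 52.7 and 96.9 (-4.58, SE 0.64, edgeR adjusted p = 0.0089) and Nckap5 at 5704 against 659 and 775 (-3.01, SE 0.50, edgeR adjusted p = 0.0274). PBS_vehicle replicate 2 was the highest of the 6 libraries for each of the 3. DESeq2 called only Nckap5.

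These calls rest on the single PBS_vehicle library. Its 12 nuclei include 3 of the mixed clusters, which held 1956, 7870 and 7093 of its 28597 UMIs, the deepest of them 27.5%. In these 3, dendritic cell markers outside the rule were at 0.282 to 1.14 UMIs per 1000. Endothelial, AT2, AT1 and airway markers together were at 10.3 to 27.1 per 1000 there. Summed endothelial markers were at 4406 CPM in it, against 1367 and 204 in PBS_NVP replicates 1 and 2, and their part in the calls was not tested. With all 12 libraries no gene was called (8 at an unadjusted p under 0.05), although 6 were without PBS_vehicle replicate 1, and Nckap5, the only one of the 3 tested there, stood at -2.14 with an edgeR adjusted p of 0.994. Among dendritic cell genes Plbd1 was at 67.9 against 850 and 388 scaled CPM (3.28, SE 0.99, edgeR adjusted p = 0.150) and Havcr2 at 34.0 against 402 and 291 (3.37, SE 1.18, edgeR adjusted p = 0.187). Both were lower in the PBS_vehicle library than in either PBS_NVP library and neither was called.

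Between Bleo_NVP and PBS_NVP edgeR called no gene (0.0%, 82 unadjusted, none by DESeq2). Of the named genes Atxn1 had the smallest p, at 1433 scaled CPM against 204 and 194, with an edgeR adjusted p of 0.400. The interaction, which asks whether the inhibitor acted differently after bleomycin than after PBS, gave no call in edgeR either (0.0%, 133 unadjusted, none by DESeq2). The 4 genes named for the smallest p on its higher side, Nckap5, Ank3, Tmem163 and Snx25, were each highest in PBS_vehicle replicate 2, at 5704, 3259, 1664 and 781 scaled CPM. With all 12 libraries neither comparison gave a call. Comparisons that share a group share its libraries and are not independent of each other.

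Whether dendritic cell nuclei changed differently from the other nuclei of the same libraries was tested in 1 edgeR fit with the library as a block. Between Bleo_vehicle and PBS_vehicle 33 genes passed, 2.56% of 1290, with 6 higher (0.465%) and 27 lower (2.09%) in dendritic cell nuclei relative to the rest. Sftpb, a surfactant protein gene of AT2 cells, differed by -3.42 (edgeR adjusted p = 0.0013) and Ptprb by -3.13 (edgeR adjusted p = 0.0019), and Slc34a2 and Lamp3, both also AT2 markers, lay on the same side. Lamp3 is also known from mature dendritic cells. In PBS_vehicle replicate 2, the only PBS_vehicle library in this fit, 3 of the 12 dendritic cell nuclei were in the mixed clusters. The comparison was not run without those clusters, and their part in these differences was not tested. With all 12 libraries, or without the called doublets, no gene passed. Between Bleo_NVP and Bleo_vehicle none passed in the 6 libraries (0.0%, 138 unadjusted), and with all 12 Tmcc3 alone did, at -4.46 with an edgeR adjusted p of 0.0335 (0.214% of 467).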

How the data were processed

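The authors sorted nuclei from 12 frozen lungs, built 10x Genomics 3′ libraries and aligned the reads to mm10 with Cell Ranger (version 7.2.0 per the file headers, 7.0 in the submitters' processing notes). They deposited, per library, a matrix of unnormalized counts, each value the UMIs of 1 gene in 1 barcode, for 31053 genes and 49163 barcodes. The study's own ambient RNA correction was not applied.

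Here nuclei needed 200 to 6000 genes and at most 5% mitochondrial UMIs, which left out 1739 barcodes with more mitochondrial UMIs, 96 with too many genes and 13 with too few. Doublets were called at 0.8% per 1000 nuclei with the scrublet method in scanpy 1.11.5 and kept. Macrophage or monocyte, B lymphocyte and fibroblast nuclei were chosen by 7, 3 and 5 marker genes and numbered 1018, 481 and 8878. Levels are CPM of summed UMIs. Clusters used 15 principal components of 1000 variable genes at resolution 0.6.

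UMI sums per library were tested with edgeR 4.0.16 (robust quasi-likelihood, filterByExpr, TMM, Benjamini-Hochberg, two-sided) in R 4.3.3, with DESeq2 1.42.0 as an alternative, and single values with exact permutation tests. The scripts were tested on simulated data. Genes were named by a rule: called genes without overlap between groups, else those of smallest p, plus the most abundant members of each list. Intervals are exact binomial (Clopper-Pearson, 95%) and, like limits from 0 counts (3 counts), cover counting error only. Alternatives changed the filters, rule, normalization, depth, libraries and blocks. The members and gene lists were chosen with earlier results of these data known. Gene coordinates are from GENCODE on GRCm38.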

Additional observations from a re-analysis of the deposited data

Results flagged for a closer look

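With every nucleus thinned to 1000 UMIs, PBS_NVP replicate 2 stood apart from the other 5 PBS libraries. Dendritic cell nuclei made up 0.398% of its nuclei (7 of 1760), while the other 5 lay between 0.0586% and 0.145%. The gap to the nearest library was 0.746 of the whole range, above the critical value of 0.625 for 6 libraries, a limit that chance passes in about 1 of 20 groups. Without thinning the same library was at 0.712% and the gap was 0.354 of the range.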

How the results depend on the processing

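The differences in the share of dendritic cell nuclei changed sign under some alternatives, and comparisons of 3 against 3 libraries could not have passed the threshold. In nuclei of at least 500 UMIs, with no more than 1% of them mitochondrial, the difference was -0.00425 percentage points between Bleo_vehicle and PBS_vehicle and 0.0163 between Bleo_NVP and Bleo_vehicle, and the state with only Flt3 and Ciita moved to -6.41. The 6 against 6 difference was 0.00497 with at least 3 UMIs of the 7 genes, 0.0231 without Ciita and 0.00374 after thinning. Leaving out 1 library at a time, the differences in share ran from -0.107 to 0.206 (Bleo_vehicle against PBS_vehicle), -0.182 to 0.132 (Bleo_NVP against Bleo_vehicle), -0.0152 to 0.284 (PBS_NVP against PBS_vehicle), -0.259 to 0.0402 (Bleo_NVP against PBS_NVP) and -0.0977 to 0.0581 (6 against 6). The state differences between Bleo_vehicle and PBS_vehicle ran from -18.3 to 0.614 (Clec9a/Xcr1), -18.3 to -12.4 (Cd209a), 18.9 to 20 (Ccr7/Ccl22) and -8.25 to 16.7 (Flt3 and Ciita only), and those between Bleo_NVP and Bleo_vehicle from -8.95 to 10.0, -2.63 to 3.33, -10.0 to -8.95 and -3.33 to 21.6. Counts of called genes depended on the libraries. With at least 500 UMIs, only PBS_vehicle replicate 2, PBS_NVP replicates 1 and 2 and Bleo_vehicle replicate 3 kept 10 dendritic cell nuclei. Outside the 12-library fit, that setting thus set 1 Bleo_vehicle library against 1 PBS_vehicle library and held no Bleo_NVP library. Its counts there are not a refit of the same libraries and cannot show the spread between mice. Between Bleo_vehicle and PBS_vehicle they were 3 with RLE scaling, 1 without the filter and 34 with at least 500 UMIs, and in the 12-library fit 5, 5 without doublets, 14 with at least 3 UMIs of the 7 genes, 7 without the mixed clusters, 0 with at least 500 UMIs and 0 without Ciita. Between Bleo_NVP and Bleo_vehicle the 12-library fit gave 8 with at least 3 UMIs and 10 without the mixed clusters, and the interaction 4 and 4, while both gave 0 without doublets, with at least 500 UMIs and without Ciita. Between PBS_NVP and PBS_vehicle the count was 1 with DESeq2, 1 without the filter, 10 without doublets, 67 with at least 500 UMIs, and 0 in the 12-library fit, also without doublets, with at least 500 or 3 UMIs, without Ciita and without the mixed clusters, and 0 with run number as a block over the 6 PBS libraries. With 1 library left out of the 6 the counts ran from 0 to 71 (Bleo_vehicle against PBS_vehicle), 0 to 4 (Bleo_NVP against Bleo_vehicle), 3 to 54 (PBS_NVP against PBS_vehicle), 0 to 0 (Bleo_NVP against PBS_NVP) and 0 to 12 (interaction), and the highest value of each that rose came without PBS_NVP replicate 1. In the PBS comparison the count was 23 without Bleo_vehicle replicate 3, 14 without Bleo_NVP replicate 2 and 9 without PBS_NVP replicate 2. With 1 left out of the 12 the ranges were 0 to 5, 0 to 5, 0 to 6 (6 without PBS_vehicle replicate 1), 0 to 0 and 0 to 3. Genes that changed differently from other nuclei numbered 0 with 12 libraries, 10 without the filter, 0 without doublets and 0 to 50 with 1 library left out (0 without PBS_NVP replicate 2, 6 without Bleo_vehicle replicate 3, 18 without PBS_NVP replicate 1, 50 without Bleo_vehicle replicate 2), and between Bleo_NVP and Bleo_vehicle 1 with 12 libraries and 0 to 15. In the 12-library fit mt-Nd4 (4.53) and mt-Co3 (4.36) passed and Nckap5 (-2.14) did not. The causes were not tested.

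Libraries with the same replicate number shared only a number, with correlations of their deviations between -0.151 and 0.145. With a replicate block in the 12-library fit 10 genes were called between Bleo_vehicle and PBS_vehicle, 7 between Bleo_NVP and Bleo_vehicle and 0 between PBS_NVP and PBS_vehicle. The replicate block could not be fitted on the 6 libraries with at least 10 nuclei, nor could the stricter rule, the rule without Ciita or the fit without mixed clusters, because too few libraries kept 10 nuclei. Leaving out PBS_vehicle replicate 2 or Bleo_NVP replicate 2 removes a group. A library with 1 or 2 dendritic cell nuclei cannot show whether a gene at 0 there is absent.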

Other observations

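Some of the genes that stood highest over the rest of the lung were not on any list of dendritic cell function. Htr7, a serotonin receptor gene, was found in 76 of the 200 nuclei at 382 CPM against 1.60 in other nuclei, and was at 458 in Clec9a/Xcr1, 53.6 in Cd209a and 833 in Ccr7/Ccl22 nuclei. Hepacam2, an adhesion molecule gene, was found in 76 nuclei at 139 times the level of other nuclei. Adam23, a membrane protein gene of the ADAM family, was at 2135 CPM in Ccr7/Ccl22 nuclei against 183 in Clec9a/Xcr1 and 364 in Cd209a nuclei. Btla, an inhibitory receptor gene that is on the list of shared markers, was at 654 in Clec9a/Xcr1 nuclei and 107 in Cd209a nuclei, and at 384 in B lymphocyte nuclei. These genes were singled out after their values were seen, and none was compared with a test.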
